A study of Mus musculus with 99 samples.

Results

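Atp8b1 and its relatives were followed through 99 single hair cells of the mouse cochlea. The set was chosen by name. It holds 10 of the 55291 gene rows of the count table: the P4-ATPases Atp8a1, Atp8a2, Atp8b1, Atp8b2, Atp9a, Atp9b, Atp10a, Atp11a and Atp11b, and the subunit gene Tmem30a. Atp8b1 entered the set with its near absence from the converted cells known from these same counts, so its difference is given as a description. A further 7 genes of the same 2 families (Atp8b3, Atp8b4, Atp8b5, Atp10b, Atp10d, Tmem30b and Tmem30c) are reported beside them, which makes 14 P4-ATPase and 3 CDC50 genes.

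P4-ATPases use ATP to move phospholipids from the outer to the inner leaflet of a membrane, and so keep phosphatidylserine and phosphatidylethanolamine on the cytosolic side. Most of them need a CDC50 protein, encoded by a Tmem30 gene, to fold and leave the endoplasmic reticulum; Atp9a and Atp9b do not. Scramblases work against them by letting lipids pass in both directions. Loss of ATP8B1 causes a familial liver disease with impaired bile flow that can come with hearing loss, and the protein has been located in the stereocilia of cochlear hair cells.

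The cells came from C57BL/6 mice, carried tdTomato and were picked by hand. The 32 outer hair cells (OHCs), which amplify sound, were taken at postnatal day 30 from Slc26a5-CreER/+; Ai9/+ mice. The 67 converted cells (cIHCs) were taken at postnatal day 42 from Slc26a5-CreER/+; Rosa26Tbx2/+ mice, in which OHCs express ectopic Tbx2 and, per the labels, turn into inner hair cells. Both genotypes carry the OHC-directed, inducible Cre. Age and genotype cannot be told apart here, and no animal is named, so the cells of a group were summed and stand for a single sample. No difference below has a replicate check or a test. The protocol text attached to every cell speaks of endogenous IHCs and iOHCs instead, and the groups here follow the titles and genotypes. Endogenous inner hair cells were not analysed here.

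The 4 OHC markers were lower in pooled cIHCs and the 4 inner hair cell markers higher, but some cIHCs had OHC marker reads. Tbx2 had 3 counts over all OHCs and 112.7 to 2643 CPM in single cIHCs. Because the cIHCs express ectopic Tbx2 by genotype, its level does not speak to their cell type. CPM is a gene's count scaled to the total of the cell or pool. Slc26a5, which encodes prestin, had 2080 CPM in pooled OHCs and 0.303 CPM in pooled cIHCs. Slc17a8, the vesicular glutamate transporter of inner hair cells, had 69.2 and 1179 CPM. Ocm, another OHC marker, had 44926 and 239.4 CPM, with reads in 51 of 67 cIHCs and up to 4718 CPM per cell. Ikzf2 had 340.3 and 16.6 CPM, with reads in 24 of 67 cIHCs. Of the 4 hair cell genes, Gfi1 (356.3 and 62.7 CPM) and Pou4f3 (630.7 and 306.2 CPM) were lower in cIHCs by at least 2-fold. Of all genes at 10 CPM or more, 14.3% were. Myo7a had 529.6 and 656.8 CPM and Myo6 1538 and 1117 CPM. OHC libraries held 5656512 to 9287413 counts and cIHC libraries 4677682 to 13792672. Genes with reads numbered 4769 to 8567 per OHC and 7081 to 11719 per cIHC, and mitochondrial genes took a median of 6.68% and 3.47% of the counts. Xist reads at 10 CPM or more were present in 4 OHCs and 55 cIHCs, and Y-linked reads in 24 and 12. By these reads the mix of sexes differed between the groups as well, and its part in the differences was not tested. Ratios given below for cells with Xist reads rest on only 4 OHCs. Among lists for other cells, the 4 glia genes together had 13.7 CPM in OHCs against 8.18 CPM in cIHCs, with 0 to 174.1 and 0 to 118.9 CPM in single cells. The 6 blood and macrophage genes summed to 3.35 and 52.3 CPM (0 to 67.0 and 0 to 336.9 CPM per cell). In cIHCs C1qb made up 48.2 CPM of that sum, C1qa had no read, and Ptprc had 2 counts. The 4 fibroblast genes summed to 15.6 and 23.3 CPM, or 7.27 and 10.4 CPM without the highest cell of each gene, since single cells held much of the sum. Of the 6 supporting cell genes, S100a1 held nearly all of the reads, at 4753 and 547.5 CPM. It was not confined to a few cells, since single OHCs had 1146 to 8401 CPM. Gjb2 had 3.03 CPM in OHCs against 5.33 CPM in cIHCs, and Gjb6 had 6.90 against 8.72 CPM, mostly from 1 cell in each group. Epyc had 20.0 CPM in OHCs, nearly all from 1 cell, and no read in cIHCs, Fabp7 had 3 counts in OHCs and 0 in cIHCs, and Sox2 had 0.0083 and 3.69 CPM. The 4 neuron genes summed to 255.6 CPM in OHCs (0 to 910.1 per cell) against 527.4 CPM in cIHCs (164.1 to 878.6 per cell), and 3 of the 4 were higher in cIHCs by at least 2-fold. The part of these markers in the results below was not tested.

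Atp8b1 had reads in many but not all OHCs and in nearly no cIHC. Pooled OHCs had 86.7 CPM (exact Poisson 95% interval 85.5 to 87.9) from 20984 counts, and pooled cIHCs had 0.0147 CPM (0.0063 to 0.029) from 8 counts. Per cell, OHCs ran from 0 to 352.8 CPM with a median of 46.9 CPM, and cIHCs from 0 to 0.876 CPM with a median of 0. Intervals cover counting error only, since reads of amplified cDNA without molecular identifiers do not each stand for a molecule. The log2 ratio of cIHC over OHC was -12.53 (exact conditional 95% interval -13.74 to -11.55). The 2 cIHCs with Atp8b1 reads held 1 and 7 counts, and neither had a read of Slc26a5 or Ocm; their Tbx2 levels were 712.4 and 800.4 CPM. The share of cells with reads was 84.4% of OHCs (exact Clopper-Pearson 95% interval 67.2 to 94.7) and 2.99% of cIHCs (0.364 to 10.4). After each cell was thinned to 5770000 reads, the shares were 79.3% and 3.03%. The number of genes with reads differed in the other direction, with more in cIHCs.

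**Figure D1:**
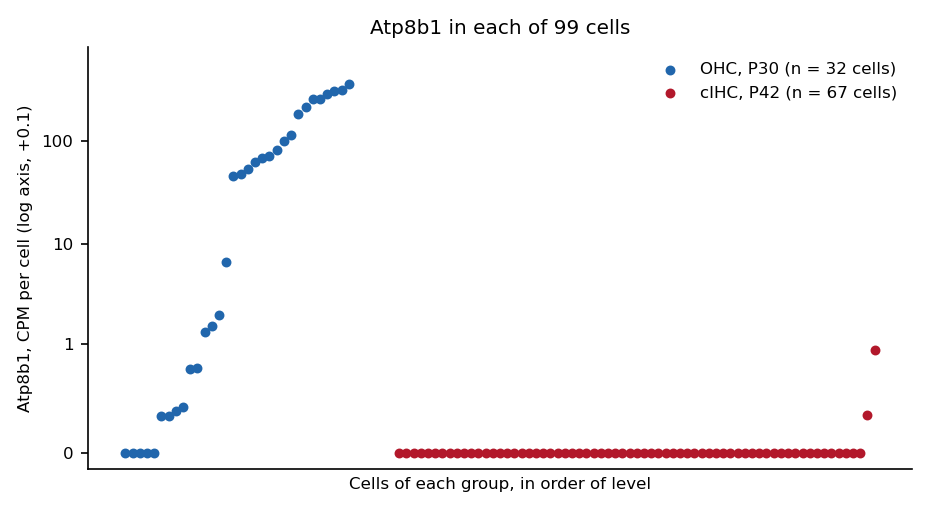
Each point is a cell, placed in order of its Atp8b1 level within its group; the y axis is CPM per cell on a log scale after adding 0.1, so cells without reads sit at the bottom. OHCs split between 15 cells at 6.73 CPM or lower and 17 cells at 46.2 CPM or higher, whereas 65 of the 67 cIHCs lie at 0.

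Within OHCs the levels fell into 2 ranges with a gap between them. A lower range of 15 cells reached 6.73 CPM, with 5 of them at 0, and 17 cells lay at 46.2 CPM or higher. No OHC lay between these values. The ranges of the groups overlapped only at the bottom: an OHC was higher in 84.0% of the 2144 pairs of 1 OHC and 1 cIHC, the cIHC was higher in 0.840%, and 15.2% of pairs were equal at 0. Depth followed the Atp8b1 level little. Across the 32 OHCs, Spearman's rho of the Atp8b1 level was -0.093 with the total count, 0.068 with the number of genes with reads and 0.14 with the mitochondrial share. Of the OHCs with Xist reads 3 of 4 were in the upper range, of those with Y-linked reads 13 of 24, and of the remaining cells 1 of 4. All 17 upper cells also had Tmem30b and Atp11a at 10 CPM or more, 15 had Tmem30a, and 16 each had Atp8a1 and Atp8a2. Nearly all OHCs did so: of the 32 cells, 31 had Tmem30b, 32 Atp11a, 29 Tmem30a, 31 Atp8a1 and 30 Atp8a2 at that level. In a single-cell library a gap of this kind does not tell cells without the RNA from cells whose few copies were not captured.

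None of the other flippase genes compared followed Atp8b1 closely from OHC to OHC. The Spearman coefficient with Atp8b1 was 0.27 for Tmem30a, 0.15 for Atp9a, 0.049 for Atp11a, 0.033 for Tmem30b, -0.011 for Atp8a2, -0.12 for Atp8a1 and -0.13 for Atp9b. Over the 2342 genes that reached 50 CPM in OHCs and had reads in 75% of them or more, 90% of the rho values lay between -0.31 and 0.29. The 5 most alike genes over these 32 cells were Dnajb2 (rho 0.59), Ndufs1 (0.54), Pdgfra (0.52), Ehmt1 (0.52) and Ssb (0.51), and the 3 least alike were Dvl3 (-0.59), Dnajb4 (-0.59) and Scg5 (-0.54). None of these 8 genes was called between the groups, and their pooled log2 ratios ran from -0.34 for Ndufs1 to 0.69 for Dnajb2. Pearson's r on log2(CPM + 1) put only 2 of the same 5 genes at the top.

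The remaining P4-ATPase genes were mostly closer to equal between the groups. A gene was called lower or higher when its pooled ratio was at least 2-fold and it had at least 10 CPM in 1 or both groups, a level that 10041 genes and 9 of the 10 members reached. Of the members, 2 were called lower in cIHCs (Atp8b1 and Atp8a1), against 14.3% of all these genes. Only 1 (Atp8b2) was called higher, against 26.3% of all genes, and 6 lay between. Since Atp8b1 was chosen on this same contrast, nothing is read from these counts. The median log2 ratio of the 9 members with a ratio was -0.45, beside 0.25 over all 10041 genes. Scaling by TMM, a trimmed mean of ratios, moved the latter by -0.19, and median-of-ratios scaling moved it by -0.20. A median of 6 of these 14 P4-ATPase genes had reads in an OHC (range 4 to 9) and of 7 in a cIHC (range 5 to 9). The cIHCs also had more genes with reads in all.

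**Figure D2:**
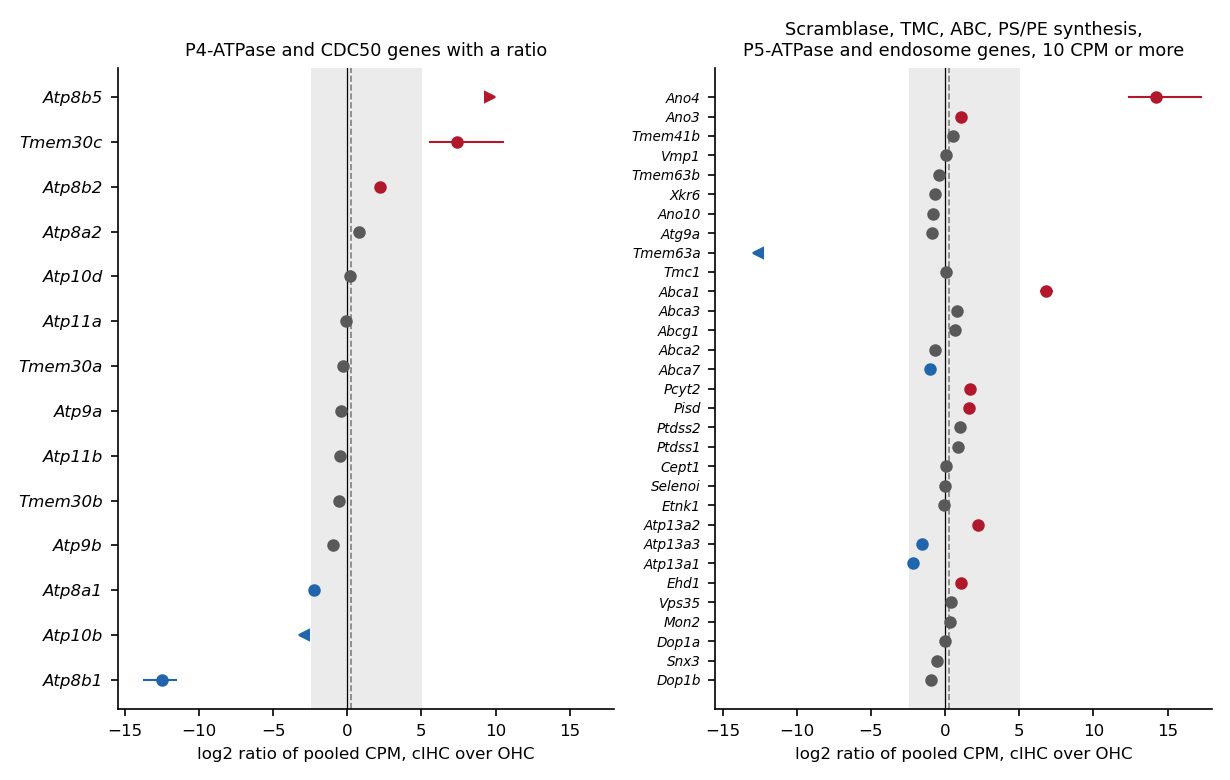
Points are log2 ratios of pooled CPM, cIHC over OHC, with 95% counting intervals as lines; arrowheads mark bounds for genes without a read in 1 group, blue and red mark ratios of -1 or below and 1 or above, and the grey band spans the 5th to 95th percentile (-2.37 to 4.98) of 10041 genes with their median as a dashed line. Atp8b1 at -12.53 and Tmem63a at most at -12.64 lie far to the left of the band and Ano4 at 14.23 far to the right.

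The RefSeq promoter table matched 11 of these 17 flippase and CDC50 genes by symbol. Of these, Atp8a1 (lower in cIHCs) and Atp8b2 and Atp8b5 (higher in them) differed most between the groups, and their upstream stretches are printed for that reason. Each is the 250 bases before an annotated start, 5′ to 3′ on the gene's strand, from RefSeq on GRCm38.p6, with CG dinucleotides in capitals. They lie at chr5:67847432-67847681 (minus strand, Atp8a1), chr3:89963339-89963588 (minus strand, the upstream of 2 Atp8b2 starts) and chr4:43266909-43267158 (plus strand, Atp8b5).
Atp8a1: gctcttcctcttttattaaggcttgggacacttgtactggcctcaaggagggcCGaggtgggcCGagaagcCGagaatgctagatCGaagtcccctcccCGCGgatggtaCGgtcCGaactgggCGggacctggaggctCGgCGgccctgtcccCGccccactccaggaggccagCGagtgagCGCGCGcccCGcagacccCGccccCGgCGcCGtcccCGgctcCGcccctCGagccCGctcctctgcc
Atp8b2: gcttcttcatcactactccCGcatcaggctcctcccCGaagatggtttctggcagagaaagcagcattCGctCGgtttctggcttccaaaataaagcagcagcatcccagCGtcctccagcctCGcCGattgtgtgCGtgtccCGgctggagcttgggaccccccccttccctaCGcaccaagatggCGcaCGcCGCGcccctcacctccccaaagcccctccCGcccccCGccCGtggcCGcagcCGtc
Atp8b5: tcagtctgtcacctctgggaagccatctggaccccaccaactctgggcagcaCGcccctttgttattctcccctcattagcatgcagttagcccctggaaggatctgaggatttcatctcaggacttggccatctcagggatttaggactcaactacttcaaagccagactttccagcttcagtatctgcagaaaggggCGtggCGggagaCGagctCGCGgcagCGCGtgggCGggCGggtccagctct
The Atp8a1 stretch holds 25 CG dinucleotides, the Atp8b2 stretch 19 and the Atp8b5 stretch 10. In the full windows of 300 bases there were 31, 26 and 13, beside a median of 7 over all 32851 promoter windows. Because the cIHCs express ectopic Tbx2, the windows were searched for the T-box core AGGTGT on both strands. It was in 0 of the 15 windows of these 11 genes, and in 13.7% of all windows. This says only that these letters are not in these windows. Atp8b1, Atp8a2, Atp9b, Atp10b, Atp10d and Tmem30c had no window, so they were not searched.

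Atp8a1 and Atp8a2 encode closely related flippases of phosphatidylserine that are abundant in the nervous system. Pooled OHCs had 298.1 CPM of Atp8a1 and pooled cIHCs 62.3 CPM. Single OHCs ran from 1.17 to 1261 CPM with a median of 235.5 CPM, and single cIHCs from 0 to 258.6 CPM with a median of 48.5 CPM. The ranges overlapped, and the OHC was higher in 87.7% of pairs. The log2 ratio was -2.26 (-2.28 to -2.24), and -2.51 after subtracting the all-gene median. All 32 OHCs and 65 of 67 cIHCs had Atp8a1 reads. The ratio stayed between -2.54 and -2.18 under every alternative that was run, among cells with Xist reads and with Y-linked reads too.

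Atp8a2 went the other way, below the fold used for a call. It had 265.0 CPM in OHCs (0 to 871.7 per cell, median 234.5) against 467.1 CPM in cIHCs (0 to 1933, median 400.6), a log2 ratio of 0.82 (0.80 to 0.83). The cIHC was higher in 70.1% of pairs, and the groups overlapped widely. After subtracting the all-gene median the ratio was 0.57. The unadjusted ratio ranged from 0.23 among cells with Y-linked reads to 1.28 among cells with Xist reads, with 4 OHCs. Of the 4 neuron genes above, 3 were also higher in cIHCs by at least 2-fold, beside 26.3% of all genes. The other, Snap25, had a log2 ratio of 0.25, the same as the all-gene median of 0.25. A link with Atp8a2 was not tested. Atp8a1 shares exon sequence with Shisa3 and Gm15477 on the other strand, and Atp8a2 with Nupl1 on its own strand, in GENCODE M21. None of these had more than 2.99 CPM in either group, and the strand setting of the counting is not given in the sources used here.

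Set against each other per length, the balance of these 2 genes differed between the groups. Per kilobase of exon, pooled OHCs had 20.9 CPM of Atp8a1 and 17.2 CPM of Atp8a2, and pooled cIHCs had 4.36 and 30.3 CPM. Atp8a2 exceeded Atp8a1 on this scale in 13 of 32 OHCs and in 64 of 67 cIHCs. Its share of the summed level of both had a median of 43.1% in OHCs and 88.97% in cIHCs, with single cells from 0 to 99.8% and from 0 to 100%. With the length of the longest coding transcript in place of all exons, a scale chosen after seeing the data, the cell counts were 9 and 62.

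**Figure D3:**
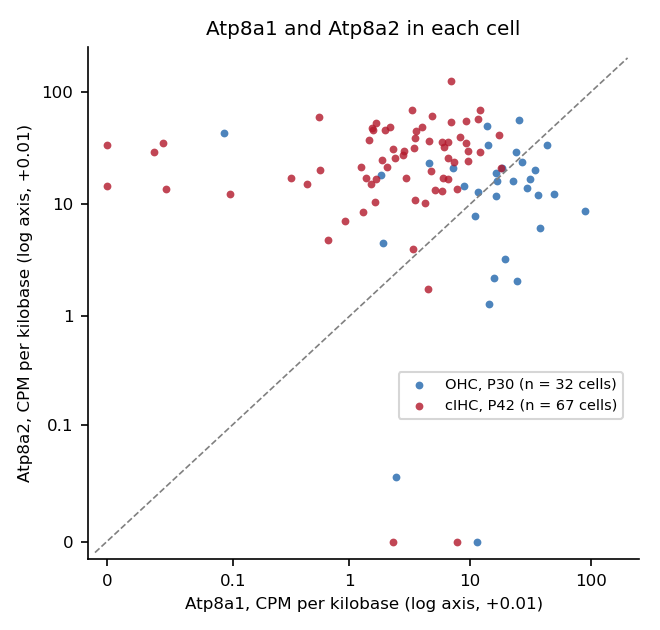
Each point is a cell, with Atp8a1 on the x axis and Atp8a2 on the y axis, both in CPM per kilobase of exon on log scales after adding 0.01; the dashed line marks equal levels. Of the cIHCs, 64 of 67 lie above the line, and of the OHCs 13 of 32.

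Atp11a, which encodes a flippase of the plasma membrane and is linked to inherited hearing loss in people, was the most abundant of these P4-ATPases per length in both groups. It had 82.4 CPM per kilobase in pooled OHCs and 79.0 CPM per kilobase in pooled cIHCs, 47.1% and 52.01% of the sum over the 14 genes. Atp11a led these genes in 28 of 32 OHCs and in 50 of 67 cIHCs. On the plain CPM scale OHCs ran from 279.4 to 1813 with a median of 904.5, and cIHCs from 0.295 to 3053 with a median of 686.0. The cIHCs thus spread beyond the OHCs at both ends. The pooled levels were 918.7 and 880.6 CPM, a log2 ratio of -0.06 whose sign turned under 4 of 9 alternatives, with values from -0.26 to 0.33.

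The cIHCs also differed in Tbx2, and of the 7 flippase and CDC50 genes compared Atp11a varied most with it. Across the 67 cIHCs, rho between Atp11a and Tbx2 was -0.49, or -0.47 without the 2 cells farthest from the median of Tbx2, and Pearson's r of the log2(CPM + 1) levels was -0.43. Over the 3936 genes that reached 50 CPM and were read in 75% of cIHCs or more, 90% had rho with Tbx2 between -0.31 and 0.32. Depth moved with both: rho with the total count was -0.47 for Atp11a and 0.32 for Tbx2, and its part was not tested. The coefficient with Tbx2 was -0.30 for Atp9a, -0.18 for Atp8a1, -0.14 for Tmem30b, 0.14 for Atp8a2, 0.023 for Tmem30a and -0.0093 for Atp10d.

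The summed level of the 14 P4-ATPase genes was 174.8 CPM per kilobase in OHCs and 151.8 CPM per kilobase in cIHCs. After Atp11a, the order in OHCs was Atp8a1 (20.9), Atp8a2 (17.2), Atp9a (16.6), Atp10d (15.7), Atp8b1 (12.9) and Atp9b (7.12 CPM per kilobase). In cIHCs it was Atp8a2 (30.3), Atp10d (18.1), Atp9a (12.1), Atp8a1 (4.36) and Atp9b (3.70 CPM per kilobase). Single cells of a group ranged widely around these means, so neighbours in these orders are not set apart. Atp8b1 thus made up 7.38% of the summed OHC level and 0.0014% of the summed cIHC level. With longest transcript lengths the OHC share was 5.01%, and the Atp11a shares were 47.2% and 53.5%.

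**Figure D4:**
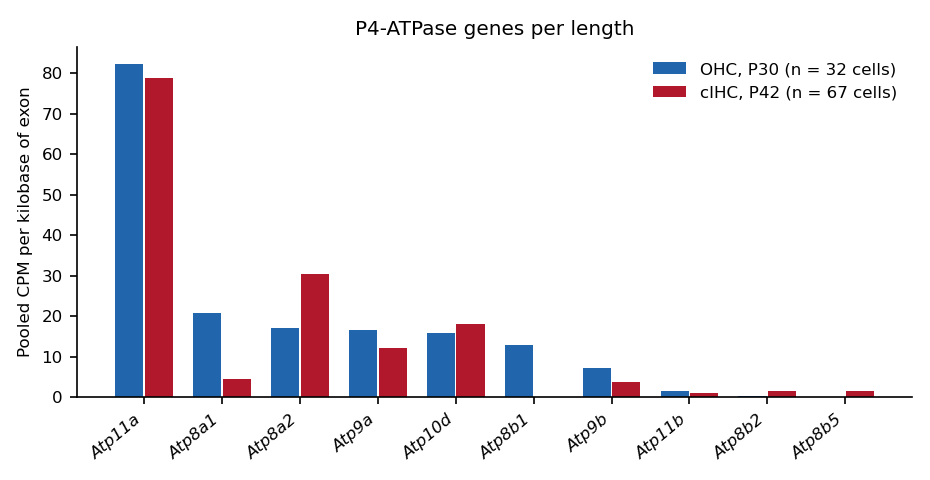
Bars are pooled CPM per kilobase of exon for each of these P4-ATPase genes with at least 0.3 in 1 or both groups, OHCs in blue and cIHCs in red. Atp11a is the tallest bar in both groups at 82.4 and 79.0, and Atp8b1 is at 12.9 in OHCs and 0.0022 in cIHCs.

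Atp9a and Atp9b work in endosomes and the Golgi without a CDC50 subunit. Atp9a had 98.0 CPM in OHCs (0 to 402.4 per cell, median 80.5) against 71.8 CPM in cIHCs (0 to 380.8, median 50.2), a log2 ratio of -0.45. The groups covered the same range. The ratio was -0.82 among cells with Y-linked reads and 0.77 among cells with Xist reads, with 4 OHCs. Atp9b had 84.7 CPM in OHCs (0 to 786.3, median 12.4) against 44.1 CPM in cIHCs (0 to 163.1, median 19.3), a log2 ratio of -0.94. In OHCs 25.2% of its counts came from 1 cell, and the cell medians stood in the opposite order to the pooled levels. The ratio was -0.62 once the highest cells were left out, but reached the 2-fold line under 7 of 9 alternatives, with values down to -1.61 among cells with Xist reads. Atp9b thus lies at the edge of a call. Atp10d, annotated in GENCODE M21 as a polymorphic pseudogene, had 123.6 CPM in OHCs (median 97.2) against 142.3 CPM in cIHCs (median 115.1). Its log2 ratio of 0.20 became 0.0019 with median-of-ratios scaling and was -0.05 relative to the median of all genes.

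Atp8b2, a member of the same subfamily as Atp8b1, had a different pattern. In OHCs all 714 of its counts came from 1 cell at 114.0 CPM, and the other OHCs had none. In cIHCs it had reads in 34 of 67 cells (50.7%, 38.2 to 63.2), with a median of 0.117 CPM, a highest value of 104.8 CPM and 13.4 CPM in the pool. The pooled log2 ratio was 2.18 (2.07 to 2.30). Without the highest cell of each group it was at least 9.91, with the OHC sum of 0 set to 3 counts. The same OHC also sets the value among cells with Xist reads, where only 4 OHCs remain and the ratio was -1.29.

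Atp8b5, known from the testis, had no read in any OHC, and 0 of 32 cells allows a share with reads of 9.38% when 0 is read as 3 cells (exact upper bound 10.9%). In cIHCs 20 of 67 cells had reads (29.9%, 19.3 to 42.3), up to 100.3 CPM, and the pooled level was 9.84 CPM, just under the 10 CPM used for calls. With the OHC sum set to 3 counts, Atp8b5 was at least 794.1-fold higher in cIHCs, a log2 ratio of at least 9.63. Among cells with Xist reads, with 4 OHCs, the bound was at least 6.69. The cIHCs had more genes with reads in all. After thinning, Atp8b5 had reads in 0% of OHCs and 30.3% of cIHCs.

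Atp11b, a relative of Atp11a, was low and patchy. Atp11b had 14.7 CPM in OHCs against 10.4 CPM in cIHCs, with reads in 9 of 32 and 25 of 67 cells, and a median of 0 in both. Its log2 ratio of -0.51 was -0.03 without the highest cells and -2.90 among cells with Y-linked reads. Among cells with Xist reads, with 4 OHCs, the ratio was 1.53. A further 4 genes had next to no reads. Atp10a, a member, and Atp8b4 each had 1 count in OHCs and none in cIHCs, Atp10b had 10 counts from 1 OHC and none in cIHCs, and Atp8b3 had no read in any of the 99 cells. For 0 of 67 cIHCs the limit read as 3 cells is a share of 4.48% (exact upper bound 5.36%).

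**Figure D5:**
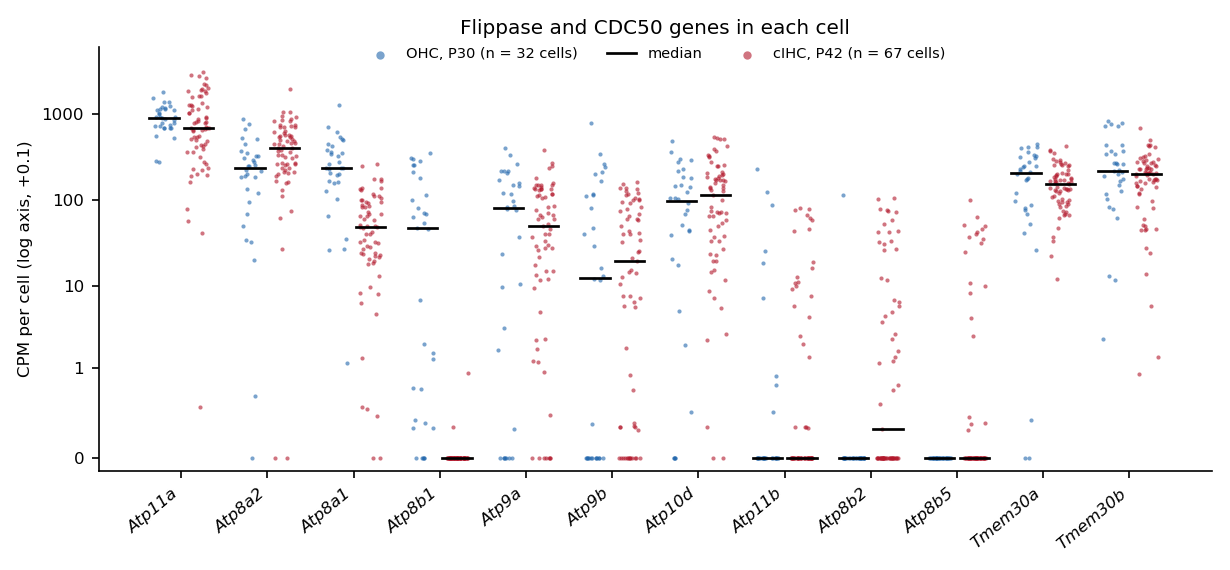
Each point is a cell and each black line the median of its group, with OHCs in blue on the left and cIHCs in red on the right of each gene name; the y axis is CPM per cell on a log scale after adding 0.1. The Atp8a1 median is 235.5 in OHCs and 48.5 in cIHCs, the Atp8b1 median 46.9 and 0, while those of Tmem30a and Tmem30b lie between 153.2 and 219.2.

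The CDC50 subunits, which most of these pumps need, were present in nearly every cell of both groups. Tmem30a had 201.1 CPM in OHCs (0 to 451.9 per cell, median 206.6) against 164.8 CPM in cIHCs (11.9 to 429.1, median 153.2), a log2 ratio of -0.29. Tmem30b had 287.9 CPM in OHCs (2.29 to 832.3, median 219.2) against 195.4 CPM in cIHCs (0.845 to 683.0, median 200.5), a log2 ratio of -0.56. The groups overlapped over nearly their whole ranges. Among cells with Xist reads, with only 4 OHCs, both ratios turned positive, to 0.04 and 0.85. Per kilobase of exon, Tmem30b exceeded Tmem30a in the pools, at 96.3 against 35.6 CPM in OHCs and 65.3 against 29.2 CPM in cIHCs. It did so in 25 of 32 OHCs and 52 of 67 cIHCs. With the length of the longest coding transcript, the cell counts were 21 and 46. The third subunit gene, Tmem30c, had 2 counts in OHCs and reads in 7 of 67 cIHCs, 1 of which held 54.8% of its counts. Its log2 ratio was 7.43 (5.57 to 10.48).

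Scramblases undo the asymmetry that flippases build. Of 25 listed genes 9 had at least 10 CPM. In cIHCs 1 was called lower and 2 higher, beside 14.3% and 26.3% of all genes, and 6 lay between, so the shares called were not above those of all genes. Its median was -0.41, and single genes differed by far more. Ano4, a TMEM16 family member, had 2 counts in OHCs, both in 1 cell, and 159.2 CPM in cIHCs, where 66 of 67 cells had reads and the median was 150.8 CPM. Its log2 ratio was 14.23 (12.38 to 17.28), and among cells with Xist reads, with 4 OHCs, at least 10.58. Tmem63a, from a family of mechanosensitive membrane proteins of which Tmem63b has reported scramblase activity, had reads in 9 of 32 OHCs at a pooled 35.2 CPM and in 0 of 67 cIHCs, a log2 ratio of at most -12.64. Ano3 had 59.1 and 126.4 CPM, but it shares exon sequence on the other strand with Muc15, at 705.4 and 95.1 CPM, and is uncertain. Its log2 ratio was 1.097, and past 2-fold under 6 of 9 alternatives. Atg9a had 19.4 and 10.4 CPM, a log2 ratio of -0.91, with 39.4% of its OHC counts in 1 cell. The Atg9a ratio was -8.02 among cells with Y-linked reads and at least 6.87 among cells with Xist reads, with 4 OHCs. Tmc1, part of the transduction channel and with reported scramblase activity, had 1054 and 1092 CPM, a log2 ratio of 0.05 that changed sign under 4 of 9 alternatives.

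Among 8 ABC and related lipid exporters, 5 had at least 10 CPM. Called were 1 higher and 1 lower, near the 26.3% and 14.3% of all genes. Abca1, which exports cholesterol and phospholipid, had 0.252 CPM in OHCs against 28.6 CPM in cIHCs, where 33 of 67 cells had reads, a log2 ratio of 6.83 (6.47 to 7.21). Of the 61 OHC counts 93.4% came from 1 cell, and the ratio was 10.44 when the highest cell of each group was left out. Abca7 had 53.3 and 26.5 CPM, a log2 ratio of -1.01 that is at the edge of a call. It fell short of 2-fold as a mean over cells (-0.96), without the highest cells (-0.90) and in thinned cells (-0.87), and turned to 6.84 among cells with Xist reads, where 4 OHCs held 7 counts. Abca3 and Abca2 had ratios of 0.82 and -0.66.

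Of the genes that make the 2 lipids most flippases carry, all 7 listed had at least 10 CPM. In cIHCs 2 were called higher and none lower, beside 26.3% and 14.3% of all genes, so the share called higher is near that of all genes. The median was 0.86, beside 0.25 over all genes. Pcyt2, of the CDP-ethanolamine route to phosphatidylethanolamine, had 26.95 CPM in OHCs against 87.6 CPM in cIHCs, a log2 ratio of 1.70 that was 0.95 among cells with Y-linked reads. Pisd, which turns phosphatidylserine into phosphatidylethanolamine in mitochondria, had 16.1 and 48.7 CPM, a ratio of 1.60. Etnk1 was at -0.06, with another sign under 2 of 9 alternatives, and Selenoi at 0.02, with another sign under 5.

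The P5-ATPases, the sister class of the flippases, were split, with 3 of 5 at 10 CPM or more, 2 called lower and 1 higher. Of all genes at that level 14.3% were called lower and 26.3% higher, and nothing is read from counts over so few genes. Atp13a1, a pump of the endoplasmic reticulum that removes misplaced membrane proteins, had 163.7 CPM in OHCs against 36.1 CPM in cIHCs, a log2 ratio of -2.18. It shares exon sequence on the other strand with Zfp866, at 85.6 and 32.1 CPM. Atp13a3, a polyamine transporter, had 99.2 and 33.7 CPM, a ratio of -1.56. This ratio was -2.13 among cells with Y-linked reads and -0.16 among cells with Xist reads, with 4 OHCs. Atp13a2, a lysosomal polyamine exporter, had 25.1 and 116.5 CPM, a ratio of 2.21 that was 0.93 among cells with Y-linked reads. Of 6 genes in the table for the endosomal partners of Atp9a and related pumps, 1 was called higher and none lower, beside 26.3% and 14.3% of all genes. The gene called was Ehd1, at a ratio of 1.05 that was past 2-fold under 4 of 9 alternatives. Vps35 had a ratio of 0.43, Snx3 of -0.53 and Dop1b of -0.94. The Dop1b ratio was past 2-fold lower under 3 of 9 alternatives. It turned to 1.41 among cells with Xist reads, with 4 OHCs.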

How the data were processed

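Single cells were picked by hand and turned into full-length cDNA libraries. The authors deposited 1 table of whole-number read counts per gene symbol and cell; that these counts are not normalised was judged from their differing totals. The submitters' processing notes list mm10 with HISAT2 2.2.1, StringTie 2.2.1 and featureCounts 2.0.1; annotation and strand setting are not given in the sources used here. The table had 0 columns of no sample and 0 pairs of identical columns. Cells were grouped by title, although the shared protocol text names other cells, 32 OHCs and 67 cIHCs, with no cell filter and no doublet caller, because each cell was picked singly. The labels name no animal, so counts were summed per group.

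Log2 ratios are of pooled CPM, with a group sum of 0 set to 3 counts; no ratio was formed from sums of 3 or fewer in both groups. Intervals are exact at 95%. Thinning to 5770000 reads per cell left 29 OHCs and 66 cIHCs. Exon lengths and overlaps came from GENCODE M21 (GRCm38, the assembly of mm10), which holds 96.4% of the symbols. Members, lists and call rules were chosen with earlier results of these data known. Named genes are the 17 P4-ATPase and CDC50 genes listed and, in each other list, the 2 highest and 2 lowest ratios at 10 CPM or more; Muc15 and Zfp866 are named for their overlap. Dopey1 and Dopey2 appear in the table as Dop1a and Dop1b. Some results are not reported here. The ratio step was tested on simulated data. Python 3.11.15 (numpy 2.4.6, pandas 2.3.3, scipy 1.17.1, matplotlib 3.10.9) and, for TMM factors, edgeR 4.0.16 in R 4.3.3 were used. The alternatives were other summaries, scalings, cells, folds and filters.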

Additional observations from a re-analysis of the deposited data

How the results depend on the processing

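No paired analysis was possible because a cell's number is a running count within its group and no result comes from a test. The depth limit lies in the low genes, where 1 cell often holds most of the reads. The direction of Atp8b1, Atp8a1, Atp8b5, Ano4 and Tmem63a was the same in each alternative with a value. The Atp8b1 ratio of -12.53 was -15.39 without the highest cell of each group, where 1 cIHC count was left, and at most -11.04 among cells with Y-linked reads, where the 12 cIHCs had no count. Its share of cells at 10 CPM or more was 53.1% in OHCs and 0% in cIHCs, fewer by construction. The members' median ratio of -0.45 was -0.28 without the highest cells, -0.64 with TMM, -0.65 with median-of-ratios factors, -0.49 and -0.53 without mitochondrial or the most abundant genes in the totals, -0.82 among cells with Y-linked reads, 0.016 among cells with Xist reads, -0.29 in thinned cells, -0.37 over the 14 flippase and CDC50 genes with a ratio and -1.56 as a mean, which Atp8b1 dominates. The count of 2 members called lower was 4 among cells with Xist reads and 4 among cells with Y-linked reads. It was 3 as a mean over cells, with TMM, with median-of-ratios factors, without the most abundant genes, in thinned cells and with a fold of 1.5. The count of 1 called higher was 2 among cells with Xist reads and 2 with a fold of 1.5. Of the single genes called, Atp8b2 (-1.29) and Abca7 (6.84) changed direction among cells with Xist reads, which leaves 4 OHCs. Pearson's r kept 2 of the 5 genes most like Atp8b1. The length scale and the marker sums without the highest cells were added after seeing the data.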
